A study of Mus musculus with 22 samples.

Results

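Etoposide was compared with vehicle in medullary epithelial cells (MECs) of the thymus from Aire-knockout (KO, Aire-/-) mice. The comparison holds 5 of the series' 22 arrays, chosen by title: 2 arrays of KO MECs labelled Etopo and 3 of KO MECs labelled DMSO, the vehicle. All 5 come from 6-week-old female C57Bl/6 mice by their labels, and all 5 carry the same germline loss of Aire, so that every MEC in both groups lacks the functional gene. Treatment was given to the mice. The live cells sorted afterwards had no CD45, little Ly51 and abundant MHC class II, a gate that leaves out thymocytes and other blood cells. Their amplified RNA was read on Affymetrix gene arrays. The labels give the drug only as Etopo, read here as etoposide. Dose, route and time are not given in the sources used here. Groups of the same series used to set the result in context were KO Topo (3 arrays, Topo being read as topotecan, an inhibitor of topoisomerase I, in 6-week-old KO females), WT Etopo (3 arrays) and WT DMSO (3 arrays), both of Aire+/+ mice. In WT Etopo and in WT DMSO alike, 1 array is labelled as male and 1 as 4 weeks old. WT Topo (3 arrays, 6-week-old WT mice) served with KO Topo to define 2 gene lists by Aire genotype. Its mitosis list mean is also given for context. The remaining groups, WT EtopoTopo (3 arrays) and KO EtopoTopo (2 arrays), are titled with both drugs and come from 4-week-old mice. They entered only the shared estimate of spread. The labels do not tell a single mouse from pooled mice, and the p-values below cover array-to-array spread only, part of which may be technical.

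Type II topoisomerases pass one DNA duplex through a transient break in another. Etoposide holds the enzyme on the broken DNA, and the breaks can activate the ATM and p53 pathways. Topoisomerase II alpha (Top2a) is made mainly in dividing cells, where it separates sister chromatids, whereas topoisomerase II beta (Top2b) is also present in resting cells and acts at transcribed genes. Aire, the transcriptional regulator lost in these mice, normally induces many genes of peripheral tissues in mature MECs and has been found in complexes with topoisomerases and DNA break proteins. Immature MECs divide, while Aire-expressing mature MECs are largely post-mitotic.

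The arrays matched their labels on the points that could be checked. The Aire probe read 12.94 and 12.83 (log2 intensity) in KO Etopo and 12.89, 12.88 and 12.96 in KO DMSO. It read 12.30, 12.22 and 12.04 in WT Etopo and 12.26, 12.24 and 12.44 in WT DMSO, so this probe does not test the deletion. The mean of 24 Aire-dependent antigen genes did separate the genotypes, at 7.19 and 7.08 in KO Etopo and 7.01 to 7.05 in KO DMSO, against 9.57 to 9.70 in WT Etopo and 9.79 to 9.90 in WT DMSO. The class II gene H2-Aa, a defining MEC marker of the gate, was at 13.58 on both KO Etopo arrays and at 13.50 to 13.57 in KO DMSO. KO DMSO 1 stood apart. Ptprc, which encodes CD45, read 10.04 on that array, against 7.21 and 7.26 in KO Etopo and 7.48 and 7.55 on the other KO DMSO arrays. The mean of 25 thymocyte genes was 7.30 and 7.25 in KO Etopo and 8.72, 7.56 and 7.35 in KO DMSO. The change of Ptprc was -1.12 with all arrays and -0.28 without KO DMSO 1. Where leaving it out moved a change, or a count at an unadjusted p under 0.05, by more than 1.5 times, the value without it is given too, except for changes near 0.

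No gene passed the test between KO Etopo and KO DMSO. At a Benjamini-Hochberg adjusted p under 0.05 (limma), 0 of 19752 genes were called, 0 higher and 0 lower (0% each way), and the lowest adjusted p was 0.209. At an unadjusted p under 0.05 the count was 707 genes, 154 higher in KO Etopo (0.780%) and 553 lower (2.80%), against 987.6 that the threshold alone would give. Without KO DMSO 1 it was 467, 55 higher (0.278%) and 412 lower (2.09%). The median change over all genes was 0.02 on the log2 scale. Below, a gene is said to be separated when both KO Etopo arrays lie beyond all 3 KO DMSO arrays, which held for 3329 genes on the higher side (16.9%) and 2536 on the lower side (12.8%). The test depended on how arrays were weighted. When limma estimated a weight for each array from its closeness to its own group, 246 genes were called, 14 higher (0.0709%) and 232 lower (1.17%), with weights of 3.26 for each KO Etopo array, 0.339 for KO DMSO 1, 1.32 for KO DMSO 2 and 1.65 for KO DMSO 3. The weights of the 2 KO Etopo arrays are equal and rest on the closeness of a single pair. A gene-by-gene estimate of the weights called 11 genes higher (0.0557%) and 215 lower (1.09%).

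Most of the separated genes with the lowest p-values on the lower side act in cell division. Of the 12 genes lower in KO Etopo that the naming rule picked, 10 act in the cell cycle: Kif2c, Aspm, Kif11, Rrm2, Kif23, Bub1, Uhrf1, Mki67, Foxm1 and Stmn1. The other two were Lipg, an endothelial-type lipase, and Yars2, the mitochondrial tyrosyl-tRNA synthetase. Lipg read 7.999 and 7.97 in KO Etopo, against 8.52, 8.50 and 8.82 in KO DMSO (change of -0.63). Foxm1, a transcription factor that drives many G2 and mitosis genes, read 7.37 and 7.33 in KO Etopo, against 8.22, 7.78 and 7.93 in KO DMSO (-0.63 ± 0.13, SE, adjusted p = 0.256).

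A list of 31 measured mitosis genes (of 32 asked for) was lower in KO Etopo throughout. All 31 changes were below 0, from -1.31 to -0.24, with a median of -0.75, while 46.1% of all genes were below 0. For 29 of the 31, both KO Etopo arrays lay below every KO DMSO array (12.8% of all genes). An unadjusted p under 0.05 on the lower side held for 30 (2.80% of all genes), with 0 of 31 called. With array weights 27 of the 31 were called lower (1.17% of all genes), or 26 by the gene-by-gene estimate (1.09%). Averaged over the list, the arrays read 7.74 and 7.91 in KO Etopo (7.82 ± 0.12, SD, n = 2), against 8.57, 8.35 and 8.69 in KO DMSO (8.54 ± 0.17, SD, n = 3). The groups did not overlap, and the thymocyte-rich KO DMSO 1 lay between the other KO DMSO arrays. In single genes it was the highest array for some, such as Kif11 and Mki67, and not for others, such as Ccna2 and Cdk1. In bulk RNA, fewer dividing cells and less of these transcripts per dividing cell cannot be told apart.

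**Figure D1:**
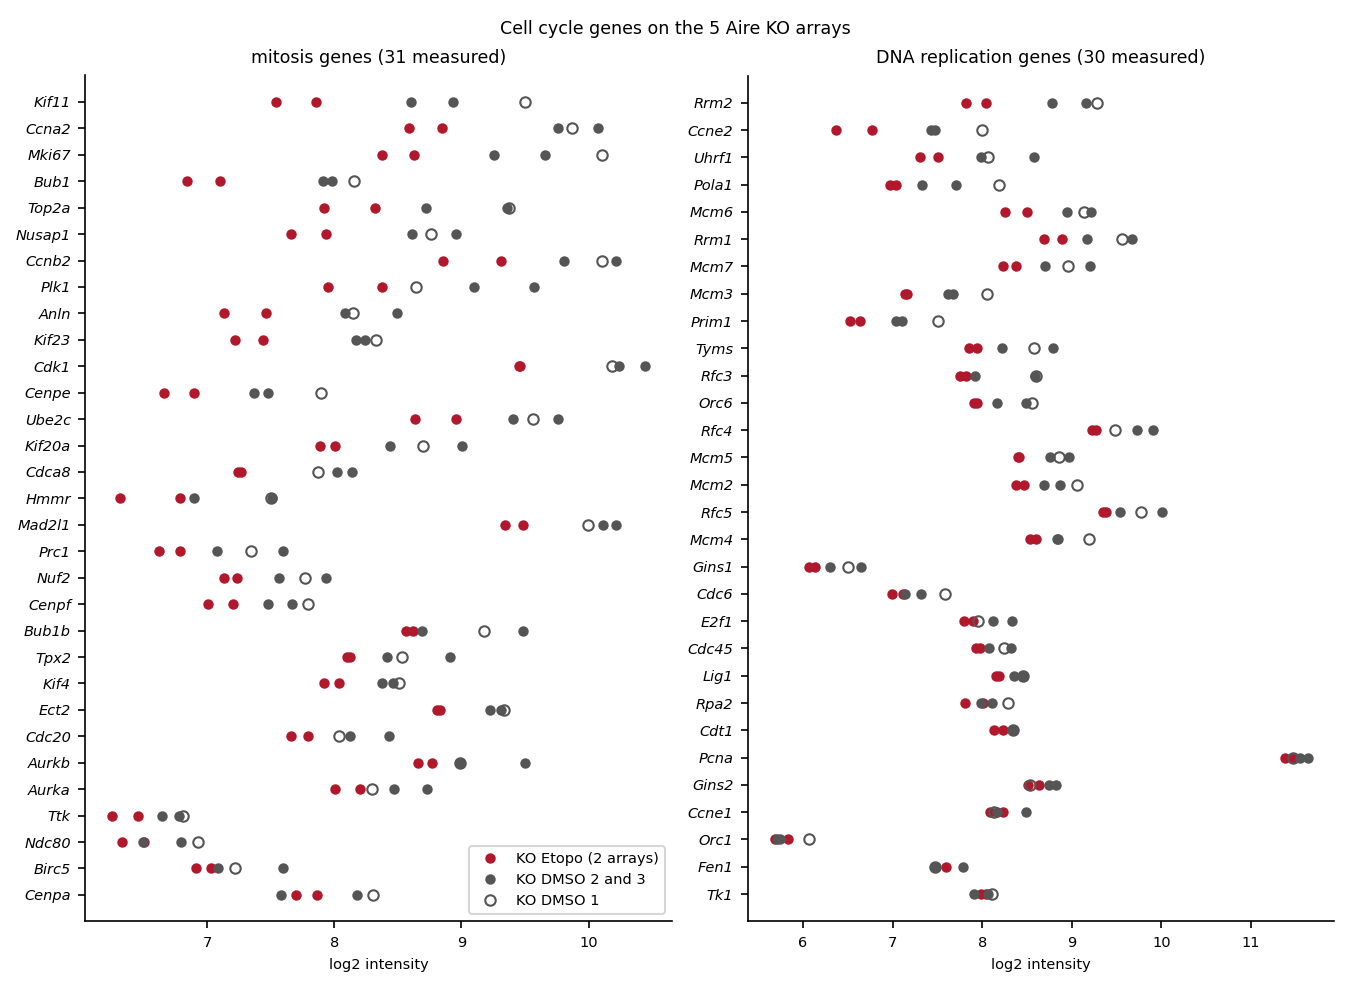
Log2 intensity (x axis) of each measured mitosis gene (left, 31 genes) and DNA replication gene (right, 30 genes) on the 2 KO Etopo arrays (red), KO DMSO 2 and 3 (filled grey) and KO DMSO 1 (open grey), ordered by the size of the change. The KO Etopo points lie left of all KO DMSO points for 29 of the 31 mitosis genes and 24 of the 30 replication genes (12.8% of all genes).

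Promoter sequences of 3 of these mitosis genes are shown because G2 and mitosis genes are known to share 2 promoter elements, the cell cycle genes homology region (CHR), bound by the MuvB complexes that repress these genes in resting cells, and the CCAAT box, bound by NF-Y. The 250 bases before the RefSeq start (GRCm38.p6) are given for Kif11, at chr19:37376132-37376381 (plus strand), Mki67, at chr7:135716380-135716629 (minus strand), and Top2a, at chr11:99024190-99024439 (minus strand). Capitals mark the CHR letters TTTGAA or TTCGAA and the CCAAT box letters CCAAT, on either strand, each motif being searched on its own.
Kif11: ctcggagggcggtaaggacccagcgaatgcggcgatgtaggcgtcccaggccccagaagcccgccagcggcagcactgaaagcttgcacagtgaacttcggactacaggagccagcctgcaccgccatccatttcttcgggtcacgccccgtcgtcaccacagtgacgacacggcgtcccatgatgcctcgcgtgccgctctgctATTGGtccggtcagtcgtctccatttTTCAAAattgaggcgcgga
Mki67: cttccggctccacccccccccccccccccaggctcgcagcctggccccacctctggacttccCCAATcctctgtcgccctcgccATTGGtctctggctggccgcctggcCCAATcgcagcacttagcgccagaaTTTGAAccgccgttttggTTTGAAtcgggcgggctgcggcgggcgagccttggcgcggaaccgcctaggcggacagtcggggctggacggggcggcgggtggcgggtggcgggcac
Top2a: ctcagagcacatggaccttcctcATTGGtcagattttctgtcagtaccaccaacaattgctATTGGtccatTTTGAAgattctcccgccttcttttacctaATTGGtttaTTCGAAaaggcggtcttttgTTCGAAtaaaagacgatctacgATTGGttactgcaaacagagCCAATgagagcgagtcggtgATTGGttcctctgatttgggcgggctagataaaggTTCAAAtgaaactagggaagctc
Kif11 held 1 CHR match and 1 CCAAT match, Mki67 held 2 and 3, and Top2a held 4 and 6. RefSeq promoter windows of 300 bases, reaching past the start, were found for 27 of the 31 mitosis genes (29 windows). The CHR letters stood in 24 of these windows (82.76%), against 19.23% of all 32851 windows, and the CCAAT letters in 23 (79.31%), against 37.41%. Both stood in 22 of the 29 windows (75.86%), against 7.525% of all. These matches describe the sequence and were not tested as binding sites.

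The spindle motors showed some of the widest gaps. Kif11, the plus-end kinesin that pushes spindle poles apart, read 7.55 and 7.86 in KO Etopo, against 9.50, 8.60 and 8.93 in KO DMSO. That is 2.48-fold lower (-1.31 ± 0.27, SE, adjusted p = 0.209). No array of either group lay between the groups, and without KO DMSO 1 the change was -1.06. Kif23, the cytokinesis motor, read 7.22 and 7.44 in KO Etopo, against 8.33, 8.17 and 8.24 in KO DMSO (-0.92, adjusted p = 0.209). Kif2c, which takes microtubules apart at kinetochores, read 6.90 and 7.13 in KO Etopo, against 7.78, 7.44 and 7.98 in KO DMSO (-0.72). Aspm, which organises spindle poles, read 7.96 and 7.997 in KO Etopo, against 9.10, 8.39 and 8.87 in KO DMSO (-0.81). Kif2c and Aspm were the 2 genes called (0.0101%, both lower) when KO DMSO 2 was left out. Neither is on the list of 31 mitosis genes, of which 0 were called in that setting. Kif20a and Kif4, both motors of the central spindle or chromosome arms, were at -0.76 and -0.47 on the log2 scale.

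Cyclins and mitotic kinases were lower too. Ccna2, the S and G2 phase cyclin, read 8.59 and 8.85 in KO Etopo, against 9.87, 9.76 and 10.07 in KO DMSO, 2.26-fold lower (-1.18 ± 0.29, SE, adjusted p = 0.399). Its partner kinase Cdk1 read 9.46 and 9.45 in KO Etopo, against 10.19, 10.24 and 10.44 in KO DMSO (-0.84, adjusted p = 0.319). The mitotic cyclin Ccnb2 read 8.86 and 9.31 in KO Etopo, against 10.10, 9.80 and 10.21 in KO DMSO (-0.96). In each of these genes every KO Etopo array was below every KO DMSO array. Plk1, the polo kinase of mitotic entry, had the largest standard error on the list (-0.94 ± 0.36, SE). The Aurora kinases Aurka and Aurkb differed by less, -0.39 and -0.45.

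Mki67, which encodes the proliferation marker Ki-67, read 8.38 and 8.62 in KO Etopo, against 10.10, 9.26 and 9.66 in KO DMSO. It was 2.25-fold lower (-1.17 ± 0.24, SE, adjusted p = 0.209), and -0.96 without KO DMSO 1. Top2a, which encodes the drug's dividing-cell target, read 7.92 and 8.32 in KO Etopo, against 9.37, 8.72 and 9.36 in KO DMSO. It was 2.04-fold lower (-1.03 ± 0.30, SE, adjusted p = 0.766), with no overlap but with KO DMSO 2 nearest to the KO Etopo arrays. Bub1, a kinase of the spindle checkpoint, read 6.84 and 7.10 in KO Etopo, against 8.16, 7.91 and 7.98 in KO DMSO (-1.04, adjusted p = 0.209). The other checkpoint genes Mad2l1, Bub1b and Ttk were at -0.69, -0.52 and -0.39. The kinetochore genes ran from Cenpe (-0.80) through Nuf2 (-0.57) and Cenpf (-0.54) to Ndc80 (-0.33) and Cenpa (-0.24). Ndc80 and Cenpa were the only members of the list whose groups overlapped, and Cenpa was at -0.10 without KO DMSO 1.

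Among genes that end mitosis, the APC/C genes Ube2c and Cdc20 were at -0.78 and -0.47 and the cytokinesis genes Anln, Prc1 and Ect2 at -0.94, -0.64 and -0.47. Nusap1, which bundles spindle microtubules, read 7.66 and 7.94 in KO Etopo, against 8.76, 8.62 and 8.96 in KO DMSO (-0.98, adjusted p = 0.368). Stmn1, a microtubule destabiliser of dividing cells that is not on the list, read 9.03 and 9.43 in KO Etopo, against 10.39, 9.76 and 10.43 in KO DMSO (-0.96). Both genes separated the groups fully.

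DNA replication genes were lower as well, by less. Of 30 measured (of 31 asked for), all 30 changes were below 0, from -1.14 to -0.01 with a median of -0.43. The groups were separated on the lower side for 24 of the 30 (12.8% of all genes), and 18 had an unadjusted p under 0.05 (2.80%), with 0 called. With array weights 14 of the 30 were called lower (1.17% of all genes), or 10 by the gene-by-gene estimate (1.09%). The list mean was 7.91 and 7.98 in KO Etopo (7.95 ± 0.05, SD, n = 2), against 8.47, 8.23 and 8.47 in KO DMSO (8.39 ± 0.14, SD, n = 3).

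The nucleotide supply genes and the G1/S genes each held members at both ends of the list. Rrm2, the cell-cycle-regulated subunit of ribonucleotide reductase, read 7.82 and 8.05 in KO Etopo, against 9.28, 8.78 and 9.16 in KO DMSO. It was 2.21-fold lower (-1.14 ± 0.23, SE, adjusted p = 0.209). Its partner subunit Rrm1 and thymidylate synthase Tyms were at -0.68 and -0.63, both separated, while thymidine kinase Tk1 read 7.98 and 8.04 in KO Etopo, against 8.12, 7.91 and 8.06 in KO DMSO (-0.01). Ccne2, a cyclin of the G1/S transition, read 6.37 and 6.77 in KO Etopo, against 8.001, 7.42 and 7.47 in KO DMSO (-1.06 ± 0.28, SE, adjusted p = 0.481). The related cyclin gene Ccne1 was at -0.10 and overlapped, and the transcription factor E2f1 was at -0.29. Uhrf1, which carries DNA methylation through replication, read 7.31 and 7.51 in KO Etopo, against 8.07, 7.99 and 8.58 in KO DMSO (-0.80, adjusted p = 0.209).

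At the replication fork, the 6 subunits of the MCM helicase on the list all separated, in the order Mcm6 (-0.72), Mcm7 (-0.65), Mcm3 (-0.64), Mcm5 (-0.46), Mcm2 (-0.45) and Mcm4 (-0.39). Mcm6 read 8.25 and 8.50 in KO Etopo, against 9.13, 8.94 and 9.22 in KO DMSO. Pola1, the catalytic subunit of DNA polymerase alpha, read 6.97 and 7.04 in KO Etopo, against 8.19, 7.32 and 7.71 in KO DMSO (-0.74 ± 0.22, SE, adjusted p = 0.808). Prim1, the primase that works with it, was at -0.63. The sliding clamp gene Pcna read 11.46 and 11.38 in KO Etopo, against 11.47, 11.63 and 11.54 in KO DMSO, a small difference (-0.13) with the groups only just apart. Fen1, the flap nuclease of the lagging strand, overlapped (-0.04).

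Promoters of replication genes are shown for Rrm2, at chr12:24708004-24708253 (plus strand), and Pola1, at chrX:93632156-93632405 (minus strand), to set them beside those of the mitosis genes. Capitals mark the same letters as above and the E2F letters TTTCCCGC, TTTGGCGC, TTTCGCGC or TTTGCCGC on either strand, E2F factors being known regulators of S-phase genes.
Rrm2: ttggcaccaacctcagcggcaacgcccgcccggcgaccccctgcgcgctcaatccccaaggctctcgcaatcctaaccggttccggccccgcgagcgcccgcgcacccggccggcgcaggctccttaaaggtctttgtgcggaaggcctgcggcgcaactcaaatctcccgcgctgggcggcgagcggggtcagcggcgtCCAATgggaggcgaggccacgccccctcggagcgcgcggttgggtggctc
Pola1: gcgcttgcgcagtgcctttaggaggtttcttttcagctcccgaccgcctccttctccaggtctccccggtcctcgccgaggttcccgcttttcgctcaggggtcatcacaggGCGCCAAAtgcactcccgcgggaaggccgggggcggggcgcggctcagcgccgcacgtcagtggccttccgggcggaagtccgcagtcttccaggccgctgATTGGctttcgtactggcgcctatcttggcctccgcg
Rrm2 held 1 CCAAT match and Pola1 held 1 CCAAT match and 1 E2F match, and neither held a CHR match in the bases shown. Over 31 windows of 26 of the replication genes, the E2F letters stood in 11 (35.48%), against 1 of 29 mitosis windows (3.448%) and 2.265% of all windows. The CHR letters stood in 5 of the 31 (16.13%), near the share among all windows, and the CCAAT letters in 18 (58.06%).

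Leaving out KO DMSO 1 kept both lists low. The mitosis median was then -0.65, with 29 of 31 separated on the lower side, against 23.5% of all genes in that 2 against 2 comparison. The replication median was -0.39, with 25 of 30 separated. Unadjusted p was under 0.05 on the lower side for 28 of the 31 mitosis genes and 15 of the 30 replication genes (2.09% of all genes), and 0 genes were called. Across 11 settings the mitosis median lay between -0.77 and -0.62 and the replication median between -0.49 and -0.37.

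**Figure D2:**
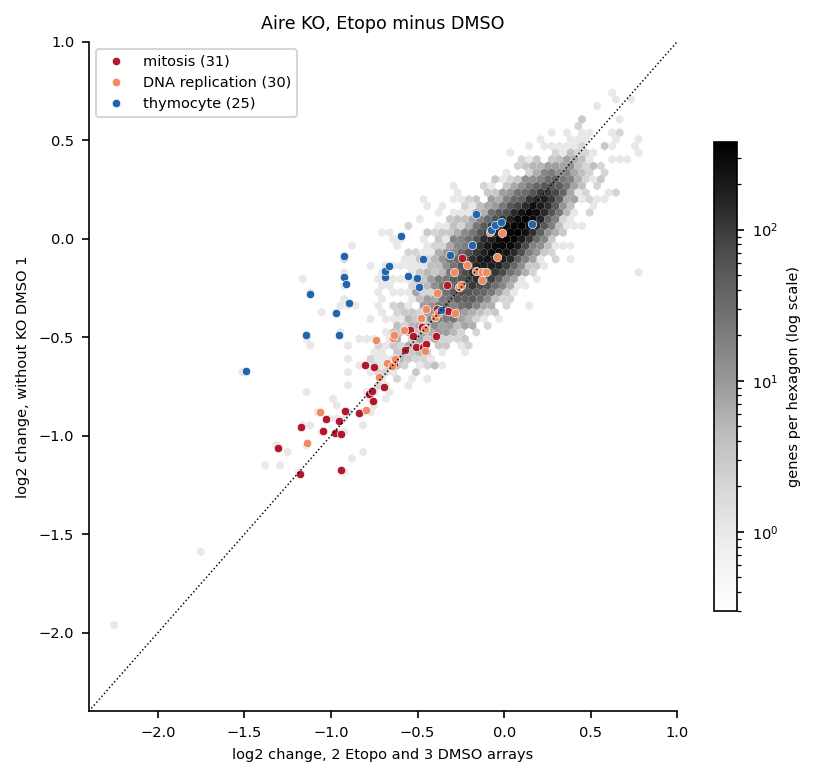
Log2 change of each gene, KO Etopo minus KO DMSO, with all 5 arrays (x axis) and without KO DMSO 1 (y axis). Grey hexagons show all genes by number, coloured points show 3 lists, and the dotted line marks equal values. Mitosis (red, 31 genes) and replication genes (orange, 30 genes) lie near the line, with medians of -0.75 and -0.65 for mitosis, whereas thymocyte genes (blue, 25 genes) move up towards 0, with medians of -0.60 and -0.19.

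Thymocyte genes were lower in KO Etopo too, and the size of this change depended on KO DMSO 1. Of 25 measured thymocyte genes, 24 were below 0, with a median of -0.60. Of the 25, 11 were separated on the lower side (12.8% of all genes) and 9 had an unadjusted p under 0.05 (2.80%). Cd3g, a chain of the T cell receptor complex, read 6.74 and 6.72 in KO Etopo, against 9.87, 7.50 and 7.29 in KO DMSO (-1.49, and -0.67 without KO DMSO 1). Cd8b1, a chain of the CD8 co-receptor, read 6.82 and 6.90 in KO Etopo, against 9.32, 7.66 and 7.04 in KO DMSO (-1.14, and -0.49 without KO DMSO 1). KO DMSO 1 was by far the highest array for both genes. The summed intensity of the 25 genes was 4625 and 4709 in KO Etopo and from 5120 to 13816 in KO DMSO. Without KO DMSO 1 the median was -0.19 and 0 of the 25 had an unadjusted p under 0.05. With the thymocyte list mean of each array added to the fit as a covariate, the mitosis median was -0.74 and the replication median -0.38. In that fit 27 of the 31 mitosis genes and 16 of the 30 replication genes had an unadjusted p under 0.05 on the lower side, among 456 of all genes, and 0 genes were called.

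Markers of other possible cells in the sort differed little by median. Medians were -0.06 for 13 B cell genes, 0.01 for 24 macrophage and dendritic cell genes, 0.09 for 20 genes of stroma and endothelium, 0.05 for 14 cortical epithelial genes and -0.02 for 6 erythroid genes. Without KO DMSO 1 the B cell median was -0.12, that of stroma and endothelium -0.00 and that of macrophages and dendritic cells 0.06. With all arrays, 5 of the 13 B cell genes were separated on the lower side (12.8% of all genes) and 2 on the higher side (16.9%). Fcer2a (-0.48) and Cr2 (-0.38) had an unadjusted p under 0.05 (2.80% of all genes lower), and 1 B cell gene did without KO DMSO 1. Of the 20 stroma and endothelium genes, 6 were separated on the higher side and 1 on the lower side. The summed intensity of the macrophage and dendritic cell genes was from 11260 to 11435 in KO Etopo and from 11052 to 11872 in KO DMSO. Acta2, the smooth muscle actin gene, was the stroma gene with the largest difference, at 8.42 and 8.97 in KO Etopo and 9.10, 9.66 and 9.96 in KO DMSO (-0.88 ± 0.41, SE, adjusted p = 0.999).

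The p53 target genes had a median near 0. Of 29 measured p53 target genes, 0 had an unadjusted p under 0.05 on the higher side (0.780% of all genes) and 1 on the lower side (2.80%), counts near those shares. The median was -0.03. Of the 29, 1 was separated on the higher side (16.9% of all genes) and 5 on the lower side (12.8%). Without KO DMSO 1 these were 6 (23.3%) and 9 (23.5%). Mdm2, the p53 target that encodes its inhibitor, read 10.70 and 10.72 in KO Etopo, against 11.50, 10.93 and 10.67 in KO DMSO (-0.33, and -0.09 without KO DMSO 1). The groups overlapped. Ckap2, the target with the largest difference, is also a mitotic spindle gene and was at -0.47. Of 20 measured genes of DNA break signalling and repair, 19 were below 0 and 10 were separated on the lower side (12.8% of all genes). Their median was -0.26, and 5 of the 20 had an unadjusted p under 0.05 on the lower side (2.80% of all genes). Without KO DMSO 1 the median was -0.24, and 2 of the 20 had an unadjusted p under 0.05. The members lowest in KO Etopo were H2ax, the histone that is phosphorylated at breaks (-0.50), Chek1, the checkpoint kinase of S phase (-0.44), Brca2, a recombination mediator (-0.44), and Exo1, a resection nuclease (-0.39). H2ax read 8.05 and 8.40 in KO Etopo, against 8.47, 8.93 and 8.78 in KO DMSO.

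Apart from Top2a, the topoisomerase genes differed little. Top1 read 9.19 and 9.31 in KO Etopo, against 9.26, 9.30 and 9.23 in KO DMSO (-0.01), and Top2b read 8.52 and 8.66 in KO Etopo, against 9.08, 8.41 and 8.50 in KO DMSO (-0.07). Both overlapped, and Top2b was at 0.14 without KO DMSO 1. In the list of 19 topoisomerase and cleavage-complex repair genes the median was -0.14, and 3 had an unadjusted p under 0.05 on the lower side: Top2a, and Xrcc5 and Xrcc6, which encode the Ku proteins of end joining (-0.49 and -0.33). Without KO DMSO 1 the median was -0.09, 1 of the 19 had an unadjusted p under 0.05 on the lower side, and Xrcc6 was at -0.19. All 3 are also on the list of 31 Aire partners, whose median was -0.09. Among 19 apoptosis regulators the median was -0.08, with the pro-death gene Bcl2l11 at -0.42 and its antagonist Bcl2 at -0.38. Bcl2l11 was at -0.15 and the median at -0.05 without KO DMSO 1.

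The histone genes had medians of opposite sign in KO and WT. In KO MECs the 17 measured core and linker histone genes had a median of -0.15. Of these, 6 were separated on the lower side (12.8% of all genes) and 4 had an unadjusted p under 0.05 on that side (2.80%). The median was -0.25 without KO DMSO 1, with 2 at an unadjusted p under 0.05. H2bc18 read 7.53 and 7.70 in KO Etopo, against 8.53, 8.26 and 8.28 in KO DMSO (-0.74 ± 0.22, SE, adjusted p = 0.766), and the linker gene H1f5 was also at -0.74. Under the same drug in WT MECs the list median was 0.28, and H2bc18 was at 0.42. For H2bc18 the KO effect minus the WT effect was -1.16 (adjusted p = 0.855). Histone genes are near-identical copies, so a probe may read several of them.

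**Figure D3:**
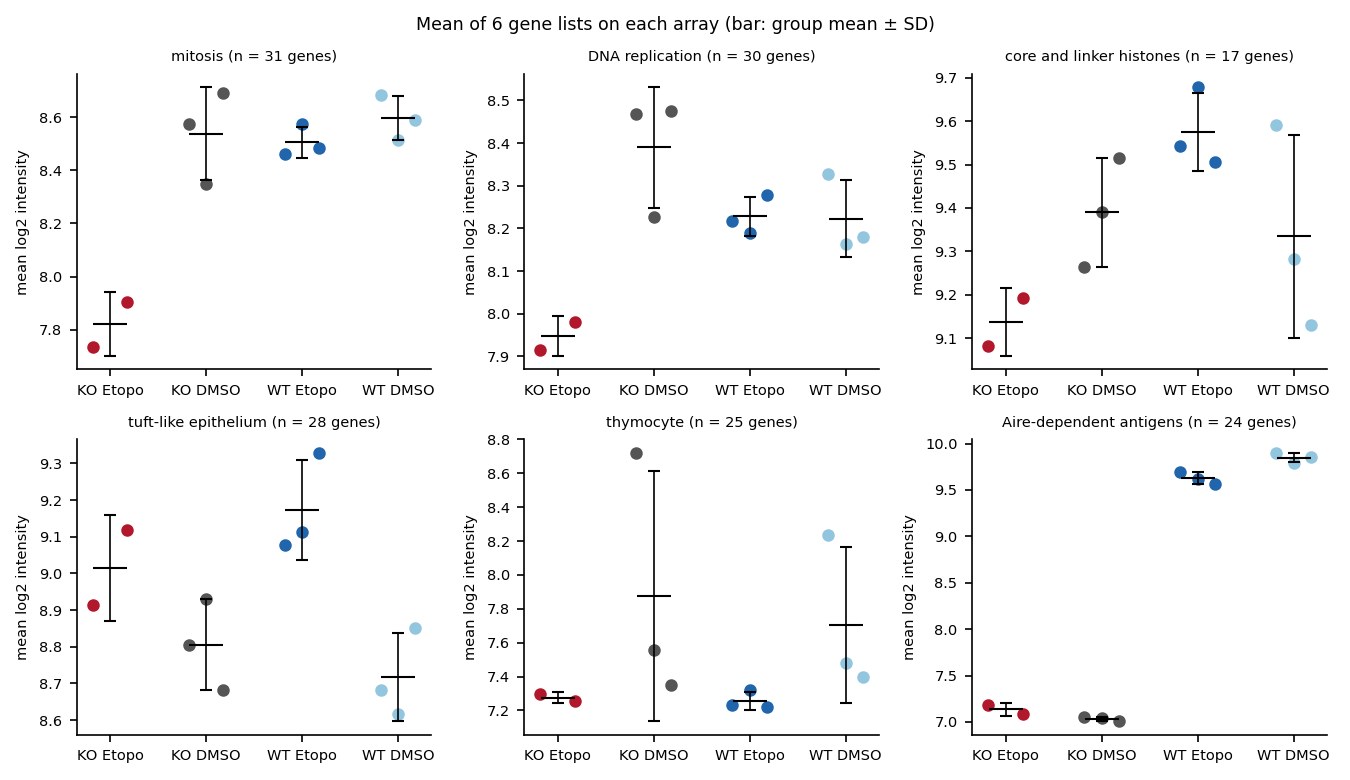
Mean log2 intensity (y axis) of 6 gene lists on each array of the KO Etopo, KO DMSO, WT Etopo and WT DMSO groups (points), with the group mean and SD (bars; n = 2 for KO Etopo and 3 for the other groups). Mitosis and replication means are lowest in KO Etopo, KO DMSO 1 stands at 8.72 for thymocyte genes, and the Aire-dependent antigens separate KO from WT.

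The cell cycle difference was then set against the same drug in WT mice, a pair of groups that shares no array with the KO pair. The test of the difference (KO effect minus WT effect) called 0 of 19752 genes, with 907 at an unadjusted p under 0.05, 558 higher (2.83%) and 349 lower (1.77%), and a lowest adjusted p of 0.195. In WT alone, 1 gene was called higher (0.00506%) and 0 lower, with 2.16% of genes higher and 3.40% lower at an unadjusted p under 0.05. There the mitosis median was -0.11 and 6 of the 31 genes were separated on the lower side (7.31% of all genes), and the replication median was -0.00 with 1 of 30 separated. The mitosis list mean was 8.46, 8.57 and 8.48 in WT Etopo (8.51 ± 0.06, SD, n = 3), against 8.68, 8.52 and 8.59 in WT DMSO (8.60 ± 0.08, SD, n = 3). The WT groups overlapped. The difference between genotypes had an unadjusted p under 0.05 on the lower side for 17 of the 31 mitosis genes (median -0.67) and 13 of the 30 replication genes (median -0.43), with 0 called.

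WT DMSO 1 was itself rich in thymocyte RNA, and its group is the base of the WT effect. The mean of the 25 thymocyte genes was 7.23, 7.32 and 7.22 in WT Etopo, against 8.24, 7.48 and 7.40 in WT DMSO, and 12 of the 25 were separated on the lower side in WT. Without WT DMSO 1 the count of genes at an unadjusted p under 0.05 for the difference was 2112 (3.16% of all genes lower), and the mitosis and replication medians of the difference were -0.67 and -0.49. Without that array and KO DMSO 1 together the count was 1488 (2.80% lower), with medians of -0.66 and -0.44 and an unadjusted p under 0.05 on the lower side for 16 of the 31 mitosis genes and 12 of the 30 replication genes. Without KO Etopo 1 the count was 282. In each of these settings 0 genes were called.

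Single genes show the same contrast between genotypes. Kif11 read 8.90, 9.23 and 9.32 in WT Etopo, against 9.51, 8.80 and 9.30 in WT DMSO (-0.05), and the KO effect minus the WT effect was -1.26 ± 0.36 (SE, adjusted p = 0.891). Mki67 read 9.55, 9.56 and 9.84 in WT Etopo, against 9.99, 9.56 and 9.82 in WT DMSO (-0.14). In both genes the WT groups overlapped, and every one of these WT arrays was above both KO Etopo arrays. Ccne2 gave the largest difference among the cell cycle genes named by rule. It read 7.24, 7.81 and 7.62 in WT Etopo, against 7.57, 6.74 and 6.88 in WT DMSO (0.49), and the KO effect minus the WT effect was -1.55 ± 0.37 (SE, adjusted p = 0.855).

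Outside the cell cycle, the 5 genes described next, named for the difference between genotypes, had larger changes in WT than in KO. This does not hold for every gene so named. H2bc18, described above, and Bpifb5 (0.66 in KO, with a difference of 0.90) changed more in KO, and some others are not described. Naaladl2, a gene of the glutamate carboxypeptidase family, read 7.20 and 7.60 in KO Etopo, against 7.82, 7.69 and 7.40 in KO DMSO, and 9.65, 9.74 and 10.01 in WT Etopo, against 8.61, 8.26 and 8.93 in WT DMSO. It was the gene called higher in WT. The difference was -1.44 ± 0.25 (SE, adjusted p = 0.195), and it passed the threshold when WT DMSO 3 was left out or age was added to the fit. Tspan8, a tetraspanin of gut-type epithelia, was at -0.30 in KO and 0.70 in WT. Crabp1, a retinoic acid carrier, was at 0.21 in KO and -0.76 in WT, and the basement membrane gene Nid1 was at 0.13 in KO and -0.72 in WT. Slc9a3, a sodium-proton exchanger of gut and kidney, was at 0.19 in KO and -0.72 in WT. Tspan8 and Crabp1 were separated in opposite directions in the KO and WT pairs.

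**Figure D4:**
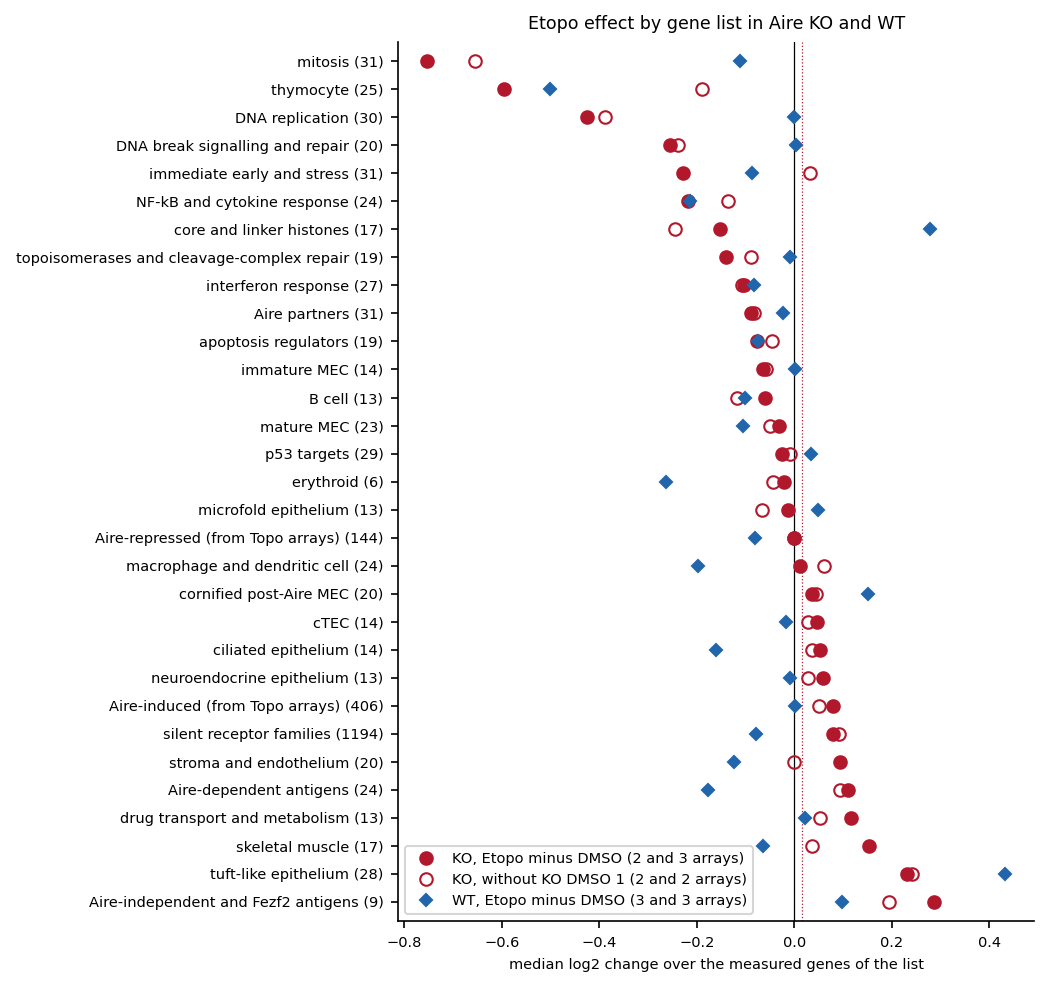
Median log2 change (x axis) over the measured genes of each list (number in parentheses), Etopo minus DMSO, in KO with all 5 arrays (filled red), in KO without KO DMSO 1 (open red) and in WT (blue diamonds). The red dotted line marks the KO median over all genes, 0.02. Mitosis is lowest in KO at -0.75 against -0.11 in WT, and tuft genes are high in both genotypes, at 0.23 and 0.43.

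KO Topo arrays, which share the genotype, age and sex of the KO Etopo arrays, were at the same low level for the cell cycle. The test of KO Etopo against KO Topo, which uses the same KO Etopo arrays again, called 0 genes, with 571 at an unadjusted p under 0.05 (1.50% of all genes higher and 1.39% lower) and a lowest adjusted p of 0.9997. Leaving out 1 array at a time, the unadjusted count ran from 155 without KO Etopo 1 to 1253 without KO Topo 2, with 0 called. KO Topo 1 stood apart from its group. Its thymocyte list mean was 7.65, against 7.20 on both other KO Topo arrays, and its macrophage and dendritic cell mean was 8.04, against 7.65 and 7.66. The mitosis list mean was 7.74 and 7.91 in KO Etopo, against 7.42, 7.89 and 7.99 in KO Topo, and the median difference over the list was 0.03. Kif11 differed by -0.10 ± 0.27 (SE) and Mki67 by 0.03 ± 0.24 (SE). Differences that miss the threshold do not show that the drugs act alike. Replication genes had a median difference of 0.00. Without KO Topo 1 the medians were -0.13 for mitosis and 0.01 for replication. The mitosis list mean was low in WT Topo too, at 7.87, 8.20 and 8.08, against 8.52 to 8.68 in WT DMSO. That pair of groups was not tested here.

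Genes of cornified epithelium were lower by median in KO Etopo than in KO Topo. Of 20 cornified epithelium genes, 9 had an unadjusted p under 0.05 on the lower side in KO Etopo, with a median difference of -0.45, and the list mean was 9.05 and 9.23 in KO Etopo, against 9.84, 9.35 and 9.56 in KO Topo. KO Topo 1 was the highest of these arrays. Without it the median difference was -0.34, and 4 of the 20 had an unadjusted p under 0.05 on the lower side, against 0.613% of all genes. Among genes named by rule were Abca12, a lipid transporter of the skin barrier (-0.64), Pof1b, an actin-binding epithelial gene (-0.80), and Scel, a gene of the cornified envelope (-0.63). Adh1, an alcohol dehydrogenase, read 10.11 and 10.27 in KO Etopo, against 10.98, 10.73 and 11.02 in KO Topo (-0.72). Xlr, an X-linked lymphocyte-regulated gene, was at -1.01 and Spock2, a matrix proteoglycan gene, at 0.80. None of these passed adjustment, and their values without KO Topo 1 are not given here. Without that array the count of all genes at an unadjusted p under 0.05 was 225, against 571 with it.

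The epithelial state of the cells otherwise differed little between KO Etopo and KO DMSO. Of 23 mature MEC genes, the median was -0.03, with 3 separated on the higher side (16.9% of all genes) and 4 on the lower side (12.8%). The exceptions with unadjusted p under 0.05 were the chemokine gene Ccl22, which read 8.52 and 8.22 in KO Etopo, against 8.93, 9.45 and 9.07 in KO DMSO (-0.78 ± 0.25, SE, adjusted p = 0.922), and the maturation receptor gene Cd40, which was at -0.32. Ccl22 had the same sign, -0.89, without KO DMSO 1. Krt5, a keratin of immature MECs, read 9.98 and 10.61 in KO Etopo, against 10.69, 10.86 and 10.95 in KO DMSO (-0.54), while the immature MEC list had a median of -0.06. Medians for cornified (0.04), ciliated (0.05), neuroendocrine (0.06) and microfold (-0.01) epithelial genes were close to the median of all genes, and lay between -0.07 and 0.05 without KO DMSO 1.

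Tuft cell genes, which encode the taste-type signalling cascade of tuft cells, were the epithelial list with the highest median. Of 28 measured, 25 were above 0 (53.9% of all genes) and 7 were separated on the higher side (16.9%), with a median of 0.23. An unadjusted p under 0.05 on the higher side held for 2 of the 28 (0.780% of all genes), or 1 without KO DMSO 1. Gng13, the gamma subunit of the taste G protein, read 9.88 and 10.05 in KO Etopo, against 9.09, 9.69 and 9.52 in KO DMSO (0.53 ± 0.17, SE, adjusted p = 0.891). The bitter receptor gene Tas2r108 and the G protein gene Gnb3 were separated too, at 0.50 and 0.47, while the cascade's channel gene Trpm5 overlapped (0.27). The median was 0.40 without KO Etopo 1, 0.07 without KO Etopo 2 and 0.12 without KO DMSO 3. In WT the median was 0.43 with 17 of 28 separated on the higher side (4.32% of all genes). Against KO Topo the tuft genes were on the other side: 9 of 28 had an unadjusted p under 0.05 on the lower side in KO Etopo and 1 on the higher side, with a median difference of -0.38. The list mean was 8.91 and 9.12 in KO Etopo, against 9.34, 9.21 and 9.42 in KO Topo. Without KO Topo 1 the median difference was -0.35, with 3 of 28 at an unadjusted p under 0.05.

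Among genes higher in KO Etopo, the lowest adjusted p was 0.468. Chil6, a chitinase-like secreted protein, read 8.11 and 7.88 in KO Etopo, against 7.15, 7.53 and 7.37 in KO DMSO (0.64 ± 0.16, SE, adjusted p = 0.468). Bpifb5, a secreted airway-type protein, read 8.17 and 7.77 in KO Etopo, against 7.04, 7.54 and 7.34 in KO DMSO (0.66 ± 0.17, SE, adjusted p = 0.470). In both genes KO DMSO 1 was the lowest array, and the changes without it were 0.54 and 0.53. Several others encode liver, gut or gland products: G6pc, glucose-6-phosphatase (0.74), Apoa1, the main HDL protein (0.75), Prap1, a gut and uterus protein (0.76), the glandular kallikreins Klk1b1 (0.66), Klk1b5 (0.67) and Klk1b11 (0.66), and Cyp2j9, a cytochrome P450 (0.59). Prap1 read 10.395 and 10.25 in KO Etopo, against 9.02, 9.92 and 9.74 in KO DMSO, and its change was 0.49 without KO DMSO 1. Without that array Apoa1 was at 0.46 and the nuclear receptor gene Nr0b1 at 0.32. Uqcrh, a subunit of respiratory complex III (0.62), Olfr320, an odorant receptor (0.68), and Nr0b1 (0.59) complete the 12 named on that side. KO DMSO 1 was the lowest KO DMSO array for 10 of these 12 genes.

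Genes that Aire controls differed little by median between the KO groups. The 24 Aire-dependent antigens had a median of 0.11. Of these, 6 were separated on the higher side and 1 on the lower side, against 16.9% and 12.8% of all genes. Ambn, an enamel matrix gene, was the member with the largest difference, at 6.52 and 6.33 in KO Etopo and 6.13, 5.79 and 5.96 in KO DMSO (0.46). A wider list was made of 406 genes lower in KO Topo than in WT Topo, on arrays outside this comparison (adjusted p under 0.05 and at least 2-fold, 2.06% of all genes). The wider list had a median of 0.08, with 95 separated on the higher side (16.9% of all genes) and 27 on the lower side (12.8%). It held 17 genes with an unadjusted p under 0.05 on the higher side and 8 on the lower side (5 and 8 without KO DMSO 1). The 144 genes higher in KO Topo than in WT Topo (0.729%) had a median of -0.00. For comparison, 1194 odorant and vomeronasal receptor genes, which are near silent in MECs, had a median of 0.08 as well, the same value as in the wider list. Of these receptor genes, 321 were separated on the higher side and 33 on the lower side. The 9 Aire-independent or Fezf2-dependent antigens had a median of 0.29, and 0.19 without KO DMSO 1. The largest changes were those of Apoc3, a plasma lipoprotein gene (0.57), Ttr, the plasma carrier of thyroxine (0.45), and Apob, another lipoprotein gene (0.40). Ttr and Apob were separated and Apoc3 overlapped, at 0.19 without KO DMSO 1. Crp, the C-reactive protein gene, was at -0.35 and overlapped (-0.63 without KO DMSO 1).

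The change of a gene varied weakly with its brightness and its genomic span. With genes put into 5 equal classes by brightness, median changes were 0.06 and 0.08 in the dimmest classes and 0.01, -0.05 and -0.03 in the brighter ones. After quantile normalization the medians of all 5 classes lay between 0.01 and 0.02. Genes spanning under 10 kb had a median of 0.07, those of 10 to 30 kb 0.00, those of 30 to 100 kb -0.03, those of 100 to 200 kb -0.03 and those over 200 kb -0.00. Without KO DMSO 1 these medians were, in the same order, 0.03, -0.02, -0.01, 0.01 and 0.02. After quantile normalization of all arrays they were 0.04, 0.01, -0.02, -0.01 and -0.01. The rank correlation between change and span was -0.22 over 19677 genes, which share the same arrays and are not independent, and brightness differs between the span classes (median log2 intensity 7.45 under 10 kb and 8.44 at 100 to 200 kb). Transcription of long genes is known to be sensitive to topoisomerase inhibition in other cell types. Whether that holds in these cells was not tested.

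**Figure D5:**
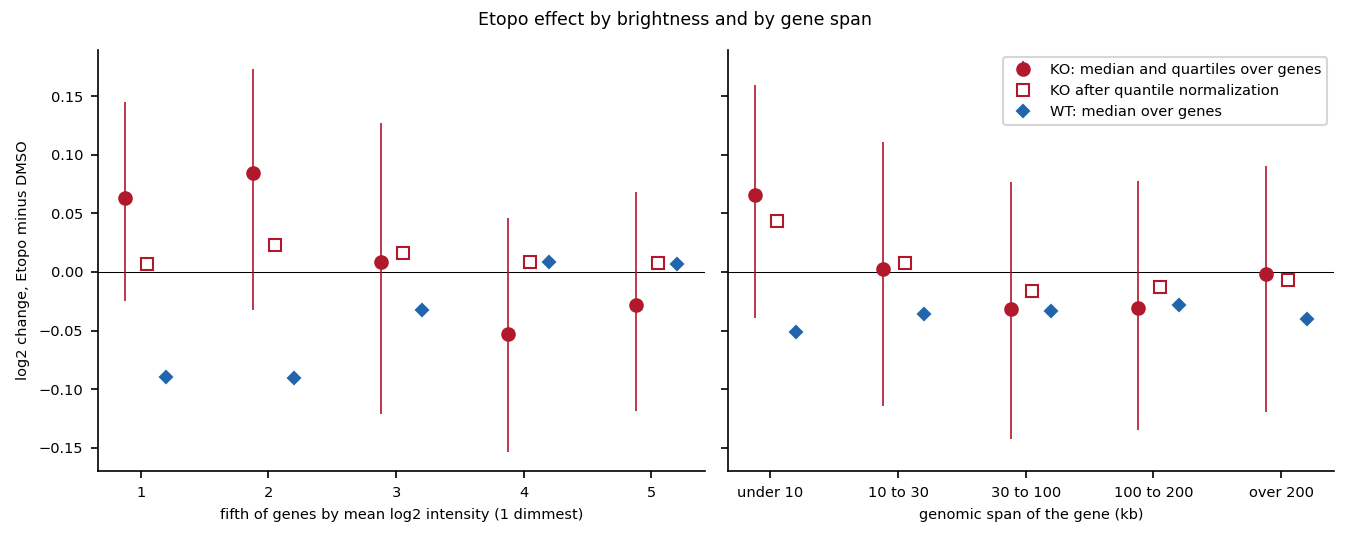
Median log2 change, Etopo minus DMSO (y axis), of genes grouped by mean brightness (left) and by genomic span (right): KO with quartiles over genes (red circles and bars), KO after quantile normalization (open squares) and WT (blue diamonds). The dimmest classes are at 0.06 and 0.08 in KO and -0.09 in WT, and the KO medians lie between 0.01 and 0.02 after quantile normalization in every brightness class.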

How the data were processed

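RNA of sorted MECs was measured on 22 arrays, all in 1 fit by title group, 2 or 3 arrays a group, which limits the precision. Per the submitters' processing notes, RMA and Affymetrix Power Tools were used, with no versions given. The deposited values are linear intensity values, 1 per probe, and log2 was taken here with no pseudocount, filter or further normalization. Of 24922 probes, 21425 had 1 gene symbol in the platform annotation. Their identifiers were looked up in RefSeq GRCm38.p6, which held 21347 of them. The probe with the highest mean was kept per gene, leaving 19752 genes. Some arrays titled WT EtopoTopo carry another treatment label. They enter only the shared estimate of spread.

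Tests used limma 3.58.1 in R 4.3.3 (lmFit with 1 mean per group, eBayes, 14 residual and 7.22 prior degrees of freedom), Benjamini-Hochberg adjustment over all genes and a threshold of 0.05. The contrasts were KO Etopo against KO DMSO, the difference of the Etopo effect between KO and WT, and KO Etopo against KO Topo. Simulated data with known changes were used to check the fit. Alternatives were the arrays in the fit, quantile normalization, dim genes left out, a pseudocount of 16, trend and robust eBayes, array weights, all probes of a gene, the replicate number as a block, a thymocyte covariate, age, and each array left out. The list values without KO Topo 1 and without WT DMSO 1 were added after seeing the data.

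Up to 12 genes in each direction (6 for the other contrasts) were named: called genes first, then separated genes with an absolute change of at least 0.58 by ascending p. The 4 members of each list with the largest change and Aire, Top1, Top2a, Top2b and Mdm2 could also be named. Y-linked, predicted, clone-named and small RNA genes were not named by this rule, and some of these were lower than any gene named. Other mitosis, replication and marker genes were named by role after their values were seen. The members and the 28 gene lists were chosen with earlier results of these data known. Lists are described by counts and medians, with no test of a list. Some list members are not analysed here. Promoter windows came from RefSeq and were matched by symbol. Figures were drawn with matplotlib 3.10.9 in Python 3.11.15.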

Additional observations from a re-analysis of the deposited data

Results flagged for a closer look

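In 4 gene lists, every Etopo array lay on one side of its genotype's DMSO mean in KO and on the other side in WT. Values are the list's mean log2 intensity on an array minus the DMSO mean of the same genotype, and the difference between genotypes was not tested for these list means. Core and linker histones averaged -0.253 in KO (-0.308 and -0.198 on the 2 arrays) and 0.241 in WT (0.171 to 0.343 on 3 arrays). Aire-dependent antigens averaged 0.0996 in KO (0.0491 and 0.150) and -0.220 in WT (-0.282 to -0.151), from levels that differ widely between the genotypes. Skeletal muscle genes averaged 0.113 in KO (0.0963 and 0.129) and -0.0558 in WT (-0.0756 to -0.0399). KO DMSO 1 was the lowest KO DMSO array for skeletal muscle (7.50, against 7.66 and 7.63). The median change of that list in KO was 0.15 with all arrays and 0.04 without KO DMSO 1. Odorant and vomeronasal receptor genes, all dim, averaged 0.0773 in KO (0.0372 and 0.117) and -0.0794 in WT (-0.181 to -0.0249). In KO the Etopo and DMSO arrays themselves did not overlap in these 4 lists. In WT they overlapped for histones (9.51 to 9.68 in Etopo, against 9.13 to 9.59 in DMSO) and skeletal muscle (7.66 to 7.70, against 7.67 to 7.77). The WT arrays also overlapped for receptor genes (5.12 to 5.28, against 5.11 to 5.46), but not for Aire-dependent antigens. No outlier test was run, since every group held 2 or 3 arrays.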

How the results depend on the processing

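In KO Etopo against KO DMSO, the count of called genes stayed at 0 except with array weights (246, or 226 by a gene-by-gene estimate added after seeing the data because the default stopped before its tolerance was met) and without KO DMSO 2 (2 genes). For the difference between genotypes it was 624 and 211 with the same weights, 1 without WT DMSO 3 and 1 with age as a covariate. For KO Etopo against KO Topo it was 234 and 105 with the weights. The cause was not tested. Leaving out 1 array at a time gave 0 to 2 genes, 0 to 1 and 0 to 0 in the 3 contrasts, and 196 (without KO Etopo 1) to 861 (without KO DMSO 2) genes at an unadjusted p under 0.05 in the first. That count was 1317 with only the 2 groups in the fit and 939 without both KO EtopoTopo arrays, a setting added after seeing the data.

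With the replicate number as a block, 0 genes were called and 692 had an unadjusted p under 0.05. The labels state no pairing. KO Etopo and KO DMSO arrays of the same number deviated from their group means with correlations of -0.149 and -0.127. With only 2 KO Etopo arrays, their deviations mirror each other (KO DMSO 1 gave 0.149 with KO Etopo 2). These values therefore cannot show whether the numbers pair the arrays.

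Of 300 list or class medians recomputed, 279 moved by less than the replicate spread. Of 1320 values of named genes, 1296 kept direction and side of the threshold, and Kif2c (-0.86) and Aspm (-1.01) passed it without KO DMSO 2. Some changes of named genes turned sign, most of them near 0. With the thymocyte covariate these were Top1 (0.0397), Top2b (0.211), Tk1 (0.0259), Mdm2 (0.0415), Plk3 (0.119), Ptprc (0.0515), Nr4a2 (0.00473) and Tnfaip3 (0.0125). After quantile normalization it was Top1 (0.0588), and with the replicate block Aire (0.0175) and Fen1 (0.00640). With 1 array left out at a time, changes ran from -0.0743 to 0.0478 for Top1, from -0.202 to 0.136 for Top2b, from -0.0797 to 0.0320 for Aire, from -0.172 to 0.0133 for Ccne1, from -0.101 to 0.0620 for Fen1 and from -0.0747 to 0.0301 for Tk1. The cause was not tested. Signal over background was not given per probe, so the background share of dim genes is unknown.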

Other observations

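After the data had been seen, 2 further gene families were looked at, and they are given as values only. All 9 measured genes of the kallikrein 1 family, secreted proteases of salivary gland and kidney, were above 0 in KO Etopo against KO DMSO, with a median of 0.37 on the log2 scale. Of these, 3 were separated on the higher side (16.9% of all genes) and 3 had an unadjusted p under 0.05 (0.780%). Without KO DMSO 1 the median was 0.33, with 1 at an unadjusted p under 0.05. In WT the median was 0.12. The family mean was 9.20 and 8.94 in KO Etopo, against 8.41, 8.85 and 8.59 in KO DMSO. Its members are close copies, so probes may share transcripts.

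Small nucleolar RNAs guide the modification of ribosomal RNA. Of 50 measured genes, 13 were separated on the lower side in KO Etopo (12.8% of all genes) and 2 on the higher side (16.9%). Their median was -0.23. The family mean was 8.39 and 8.71 in KO Etopo, against 9.14, 8.50 and 8.86 in KO DMSO, so the groups overlapped. The median was -0.09 without KO DMSO 1, and 0.22 in WT.

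Immediate early and stress genes, many of which respond to cell handling, had a median of -0.23 over 31 genes with all arrays and 0.03 without KO DMSO 1. Their mean was 9.43 and 9.80 in KO Etopo, against 10.35, 9.61 and 9.62 in KO DMSO. Genes of NF-kB and cytokine signalling had a median of -0.22 over 24 genes, and 0 had an unadjusted p under 0.05. Of the 24 genes, 12 were separated on the lower side (12.8% of all genes) and 0 on the higher side (16.9%). Their mean was 9.52 and 9.56 in KO Etopo, against 9.87, 9.76 and 9.62 in KO DMSO, with KO DMSO 1 the highest array, and the median was -0.14 without it. Interferon response genes had a median of -0.10 over 27 genes, and drug transport and metabolism genes 0.12 over 13 (0.05 without KO DMSO 1).

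Across 19752 genes, the Etopo effect in KO and that in WT, which share no array, had a Spearman rho of -0.10 and a Pearson r of -0.02. Genes are not independent replicates, and this is a description of these arrays.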
